A study of Mus musculus with 80 samples.

Results

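Cells of the lung hold to one another and to the matrix beneath them through a small number of protein families, and 47 genes of these families were measured here on arrays of lung RNA from young, adult and old mice. They were the genes whose symbol is that of an integrin subunit, a cadherin or protocadherin, a catenin, a claudin or another tight junction protein, a connexin, a plakophilin, a nectin, Pecam1, Epcam or vinculin, among 7151 genes with at least 1 spot of a single symbol. In all 58 of 9663 such spots met this rule, and each gene was taken at its spot of highest mean over all mice, so that 24 genes were read on table A and 23 on table B of the clone set. The rule reads symbols and no measured value. Other adhesion genes that were looked for by name, such as Itgb2, Icam1, Vcam1, Cldn5, Cldn18, Ocln, Jup, Dsp and Tln1, had no spot under the rule and were not analysed here.

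Integrins are receptors of an alpha and a beta subunit that bind matrix proteins or other cells and pass force to actin through adaptors such as vinculin. Cadherins join neighbouring cells in adherens junctions, with catenins on their inner side. Claudins and their scaffold Tjp1 seal the space between epithelial or endothelial cells, connexins form channels from cell to cell, plakophilins belong to desmosomes, and nectins start contacts between epithelial cells. In the lung these proteins hold the thin barrier between air and blood and let leukocytes settle in the airway wall and the alveoli.

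The mice were C57BL/6, fed without restriction, with no transgene or treatment given in the labels, and all groups shared this background. The 40 mice formed 4 age groups, each of 5 males and 5 females. The youngest were aged 17 to 44 days and the next group 169 to 194 days, while the older groups were aged 476 to 499 days and, at the end of the range, 704 to 743 days. For every mouse 2 arrays, 1 per table, were hybridised with 33P-labelled cDNA of total lung RNA, so values describe whole lung: fewer cells of a type and less RNA per cell cannot be told apart. Levels are z scores, the distance of a spot from the mean of its array in units of the array's SD, so they carry no fold, are not compared between genes, and say nothing of absolute RNA. Nothing in the labels says how animals were housed or bred together. The p-values set an effect against the spread between these mice, each with 1 array per table. Differences between mice and between arrays cannot be told apart in that spread.

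Array checks concern the whole series and are given here once. Within a group of 1 age and sex, an array's mean correlation to the rest lay between 0.869 and 0.962 on table A and between 0.917 and 0.969 on table B, the lowest on table A being 2 females of 704 to 743 days. For 1 male aged 714 days the description gives a mouse other than the title does. Among lung markers the mean z over all mice was 1.417 for Cbr2 of club cells, 0.86 for Slc34a2 and -0.063 for Sftpd of alveolar type II cells, 2.393 for Lyz2 of macrophages and -2.028 for Nos3 of endothelium, values that are not compared with each other. Of the alveolar type I list 1 of 11 genes was measured (Cav1, mean z -0.106), and no gene of the lists for heart muscle and stratified epithelium. A z score has no true 0, so no marker can be called absent. The title numbers of the mice were divided here into 27 earlier mice, below 46, and 13 later mice, at 46 or above. The labels do not call this a batch and do not give this division, and the numbers have no gap between 45 and 46. Results are also given within it.

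Spots are laid out by number in 16 blocks of 24 lines and 22 columns, and spots of 1 block and column shift together from array to array. The effects of members that the results turn on are therefore set beside the median effect of the 23 other spots of its block and column, called its neighbours here, and beside its effect after subtracting, in each array, the median deviation of those 24 spots (position corrected).

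Promoters are shown for 3 members: Ctnnb1, whose age slope had the smallest p, and Itgb7 and Cdh22, called in the comparison among the youngest mice. Each run is 300 bases of RefSeq (GRCm38.p6), 250 before and 50 after the annotated start, 5′ to 3′ on the gene's strand, and capitals mark matches on either strand to a GC box (GGGCGG) or a CCAAT box. Ctnnb1 lies at chr9:120933150-120933449 on the plus strand, Itgb7 at chr15:102231886-102232185 on the minus strand and Cdh22 at chr2:165234688-165234987 on the minus strand.
Ctnnb1: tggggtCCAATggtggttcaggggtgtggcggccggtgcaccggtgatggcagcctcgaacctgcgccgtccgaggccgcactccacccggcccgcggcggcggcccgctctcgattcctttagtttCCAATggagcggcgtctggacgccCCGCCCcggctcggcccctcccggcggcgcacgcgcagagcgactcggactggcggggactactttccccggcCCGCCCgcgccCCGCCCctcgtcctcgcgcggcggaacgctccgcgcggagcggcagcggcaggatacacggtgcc
Itgb7: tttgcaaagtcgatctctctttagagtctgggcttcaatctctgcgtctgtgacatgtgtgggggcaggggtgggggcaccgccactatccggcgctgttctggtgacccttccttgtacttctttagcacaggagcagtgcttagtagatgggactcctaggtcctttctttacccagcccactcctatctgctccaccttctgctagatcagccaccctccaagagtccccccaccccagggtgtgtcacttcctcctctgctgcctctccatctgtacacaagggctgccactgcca
Cdh22: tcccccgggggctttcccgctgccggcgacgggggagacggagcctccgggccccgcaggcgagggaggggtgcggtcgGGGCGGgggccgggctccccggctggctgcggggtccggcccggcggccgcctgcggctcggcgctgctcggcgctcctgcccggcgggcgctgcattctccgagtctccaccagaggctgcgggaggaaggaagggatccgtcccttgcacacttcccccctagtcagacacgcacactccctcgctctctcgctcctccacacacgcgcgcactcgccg
The Ctnnb1 run, for 1 of 2 starts in the table for this gene, held 3 GC boxes and 2 CCAAT boxes, with 75.3% G or C. Cdh22 held 1 GC box in 76.3% G or C, and Itgb7 held no match in 56.3% G or C. A TATA box (TATAAA) and an E-box (CAGGTG) were searched on both strands too and had no match in the runs shown. A CCAAT box and a GC box can share bases, and each was counted on its own. Of the members, 34 had 43 promoters in the table, and 27 of these (62.8%) held a GC box against 35.7% of all 32851 promoters. Matches to CCAAT stood at 39.5% against 37.4%, to TATAAA at 6.98% against 13.6% and to CAGGTG at 25.6% against 20.2%. These are matches of letters and no measure of binding.

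Whether expression of adhesion genes changes over life was asked first with the slope of z on age over all 40 mice, in z per 100 days with sex as a term. None of the 47 genes passed an adjusted p of 0.05 (limma, Benjamini-Hochberg over all spots of both tables), a threshold that 0.0178% of all spots passed. At an unadjusted p under 0.05, 1 member had a positive slope (Itgb1) and 5 a negative one (Ctnnb1, Itgb7, Tjp1, Ctnnd1 and Nectin1), while 5.44% of all spots had a positive and 8.32% a negative slope at that p. With 47 members, these shares stand close to the background. The median slope of the members was -0.0007, against 0.0027 over all spots, and 25 slopes lay below 0 and 22 above.

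**Figure D1:**
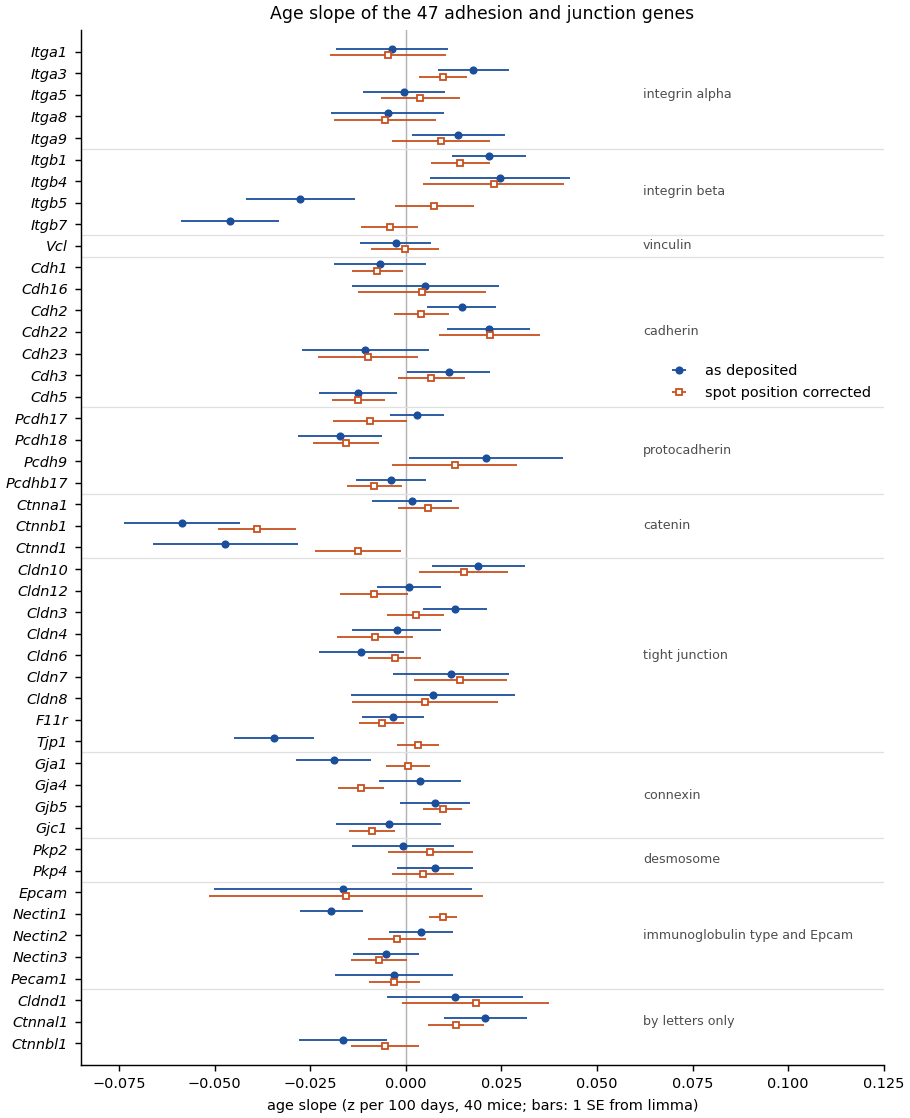
Age slope in z per 100 days of each of the 47 genes over 40 mice, grouped by family, as deposited (filled circles) and position corrected (open squares), with bars of 1 SE from limma. Ctnnb1 lies at -0.0585 and at -0.0389 with the correction, whereas Itgb7, Tjp1, Ctnnd1, Itgb5 and Nectin1 move towards or past the zero line.

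Of the 3 catenins, Ctnnb1 (gene number 12387) had the smallest p of all members. It encodes beta-catenin, which binds the tails of cadherins and also carries Wnt signals to the nucleus. Its z ranged from 0.19 to 0.99 (median 0.465) in the mice of 17 to 44 days, from -0.42 to 0.66 (0.27) at 169 to 194 days, from -0.05 to 0.77 (0.215) at 476 to 499 days and from -0.4 to 0.31 (0.125) at 704 to 743 days. The youngest mice were the highest group and the oldest the lowest, with values that overlap between 0.19 and 0.31. Group means were 0.527 ± 0.237 (SD, n = 10), 0.21 ± 0.278, 0.262 ± 0.217 and 0.02 ± 0.281. The slope was -0.0585 (SE 0.0152, unadjusted p = 0.000385, adjusted p = 0.0537), with -0.0646 in females and -0.0525 in males.

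The adjusted p of Ctnnb1 lay on either side of the threshold across settings. It was 0.00561 with log2 of age, 0.00524 with array weights, 0.0325 without the dimmest spots and 0.0496 with trend and robust variance settings, under which 118 to 1313 spots of all genes were called in place of 3. It was 0.0717 with quantile normalization, 0.11 without the male with conflicting labels, 0.145 without the 2 oldest females that stand apart, 0.173 among the earlier title numbers and 0.999 among the later. Leaving out any 1 of 11 mice (the males of 40, 43, 186, 194, 476, 730 and 743 days and the females of 33, 180, 193 and 194 days) also brought it under 0.05, in fits that called 261 to 631 spots of all genes, and over all 40 such fits it ran from 0.0203 to 0.14. The slope was -0.0534 among the earlier title numbers and -0.0602 among the later. Position correction reduced it to -0.0389 (SE 0.0101, adjusted p = 0.0778), beside neighbours at -0.0172. Over the 30 adult mice it was -0.0332 (SE 0.0213, unadjusted p = 0.13).

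The other catenins of the adherens junction had smaller slopes at their brightest spots. Ctnna1, which ties the complex to actin, had a slope of 0.0016 (SE 0.0105) at that spot, where its group means stayed between 1.411 and 1.461. Its other spots had -0.0182 (SE 0.0118) and -0.0125 (SE 0.0097), and -0.0139 (SE 0.012) and -0.017 (SE 0.0082) position corrected. Ctnnd1 encodes a catenin that binds cadherins close to the membrane and steadies them there. Its mean went from 0.236 ± 0.348 in the youngest mice to -0.197 ± 0.304 in the oldest, with ranges of -0.53 to 0.68 and -0.62 to 0.38 that overlap widely. The slope of -0.0472 (SE 0.019, adjusted p = 0.214) stood beside neighbours at -0.0357 and became -0.0125 (SE 0.0113) position corrected.

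Among the integrin beta subunits the 4 measured genes spread over both signs. Itgb7 (gene number 16421) encodes the beta subunit of leukocyte integrins that bind mucosal vessels and E-cadherin. Its z ranged from 1.43 to 2.06 (median 1.735) in the youngest group, from 1.23 to 2.06 (1.5) at 169 to 194 days, from 1.26 to 1.95 (1.63) at 476 to 499 days and from 1.17 to 1.71 (1.37) in the oldest. Every pair of groups overlapped. The slope was -0.0459 (SE 0.0128, adjusted p = 0.0555) beside neighbours at -0.0392, and position corrected it was -0.0042 (SE 0.0075, adjusted p = 0.899). It differed between earlier (-0.0649) and later title numbers (-0.017), a difference that was not tested.

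Itgb1, the beta subunit shared by most matrix-binding integrins, was the 1 member with a positive slope at an unadjusted p under 0.05. Its group means were 0.57 ± 0.16 (SD, n = 10), 0.556 ± 0.122, 0.693 ± 0.095 and 0.69 ± 0.233 from the youngest to the oldest. The slope was 0.0218 (SE 0.0097, adjusted p = 0.284), and 0.0143 (SE 0.0076) position corrected. Itgb5, a vitronectin receptor subunit, had -0.0276 (SE 0.0143) beside neighbours at -0.04 and 0.0075 position corrected. Itgb4, which anchors epithelium to the basement membrane in hemidesmosomes, had 0.0246 (SE 0.0183), with 1 female of 704 days at 1.55 when the other oldest mice reached at most 0.03.

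All 5 integrin alpha subunits and vinculin lacked an unadjusted p under 0.05. Itga3, which binds laminin, was the nearest at 0.0176 (SE 0.0093, unadjusted p = 0.0653). Itga9 had 0.0137 (SE 0.0122), and the fibronectin receptor subunit Itga5, the collagen receptor subunit Itga1 and the mesenchymal Itga8 had -0.0004, -0.0036 and -0.0047. Vcl, which links integrin and cadherin contacts to actin, kept group means between 0.623 and 0.668 and had a slope of -0.0026 (SE 0.0093).

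**Figure D2:**
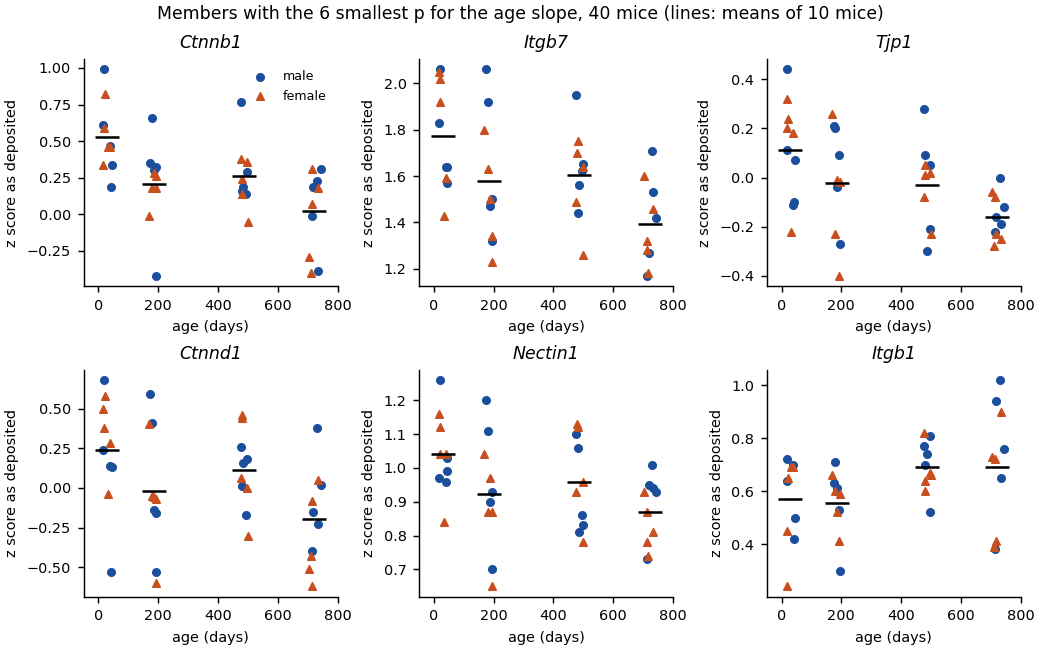
Deposited z score of each mouse against its age in days for the 6 members with the smallest p for the age slope, males as circles and females as triangles, with lines at the mean of the 10 mice of an age group. Ctnnb1 steps from 0.527 in the youngest to 0.02 in the oldest group, and in each of the 6 genes the values of the youngest and the oldest mice overlap.

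The 7 cadherins had slopes from -0.0125 to 0.0217, none with an unadjusted p under 0.05. Cdh1, the E-cadherin of epithelia, had -0.0067 (SE 0.0121) with group means of 0.851, 0.933, 0.911 and 0.809. Cdh5, the cadherin of endothelium, had -0.0125 (SE 0.0101), and Pecam1, an immunoglobulin-type molecule of the same cells, had -0.0031 (SE 0.0155). The 6 measured endothelial markers outside the rule had a median slope of -0.0038, with 1 of the 6 (Cd93) positive at an unadjusted p under 0.05. Cdh2, the N-cadherin of mesenchyme and nerve, stood at 0.0146 (SE 0.0091) and the type II cadherin Cdh22 at 0.0217 (SE 0.0108, unadjusted p = 0.0507). Cdh3, Cdh16 and Cdh23, named for placenta, kidney and the hair cells of the ear in their known sites, had 0.0112, 0.0051 and -0.0106. The protocadherins Pcdh9, Pcdh17, Pcdh18 and Pcdhb17 had 0.021, 0.003, -0.0172 and -0.0038, with SE between 0.007 and 0.0201. Pcdhb17 belongs to a cluster of near-identical genes whose cDNA can bind the same spot, so its value is uncertain.

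Of 9 tight junction genes 1 had an unadjusted p under 0.05. Tjp1 (gene number 21872) encodes a scaffold beneath claudins that also binds actin. Its z ranged from -0.22 to 0.44 (median 0.145) in the youngest group, from -0.4 to 0.26 (-0.015) at 169 to 194 days, from -0.3 to 0.28 (0.015) at 476 to 499 days and from -0.28 to 0 (-0.175) in the oldest. The oldest mice were all at or below 0 and 7 of the 10 youngest above it. The slope was -0.0345 (SE 0.0105, adjusted p = 0.0764) beside neighbours at -0.0378, and it turned to 0.0032 (SE 0.0054) position corrected. The 7 claudins, which form the tight junction strands, ran from -0.0116 (Cldn6) to 0.019 (Cldn10), and F11r, an immunoglobulin-type molecule of the same junction, had -0.0033 (SE 0.0081). Cldn3, Cldn4 and Cldn7, claudins of airway and alveolar epithelium, had 0.0129, -0.0024 and 0.0119, each within 2 SE of 0.

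Connexins, plakophilins, nectins and Epcam add 1 gene at an unadjusted p under 0.05. Nectin1 had a slope of -0.0195 (SE 0.0082, adjusted p = 0.242) beside neighbours at -0.0298, and 0.0097 (SE 0.0037, unadjusted p = 0.0122, adjusted p = 0.243) position corrected, so that its direction depends on the correction. Gja1, the connexin of many lung cell types, had -0.0188 (SE 0.0098) beside neighbours at -0.0181 and 0.0006 position corrected. Gja4, a connexin of arterial endothelium, Gjb5 and Gjc1 had 0.0037, 0.0076 and -0.0045. Pkp2 and Pkp4 had -0.0007 and 0.0076, Nectin2 and Nectin3 0.004 and -0.0051. Epcam, a marker of epithelium, had -0.0164 with the largest error of all members (SE 0.0338), 1 female of 19 days standing at 1.49 when every other mouse was at or below -0.51. The symbols Cldnd1, Ctnnal1 and Ctnnbl1 met the rule by their letters although the products are not established adhesion molecules, and had 0.0129, 0.0208 and -0.0164.

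The negative slopes thus gathered on certain columns of the array. Itgb7, Tjp1 and Nectin1 all lie in column 9 of table B, where 294 of 384 spots had a negative and 9 a positive slope at an unadjusted p under 0.05. Ctnnd1 lies in column 8 of table B (167 negative, 14 positive) with Pkp4, and Ctnnb1 and Itgb5 in column 8 of table A (103 negative, 5 positive). Across the 47 members the slope and the median slope of the neighbours had a Pearson r of 0.768 and a Spearman rho of 0.655, given as a description across genes that share arrays and columns. Within the youngest mice the same measures were 0.608 and 0.521. After correction 1 member each had a negative (Ctnnb1) and a positive slope (Nectin1) at an unadjusted p under 0.05. Of all spots, 1038 then had a negative and 898 a positive slope at that p, where 1405 and 919 did as deposited. The member counts do not exceed this background. The part of spot position in these slopes is given by these values and was not tested further.

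**Figure D3:**
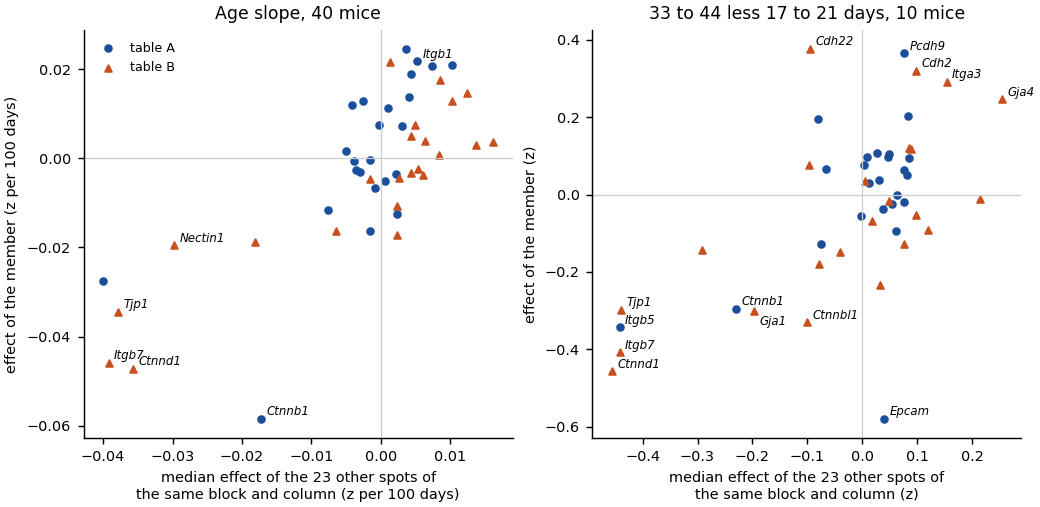
Effect of each of the 47 genes against the median effect of the 23 other spots of its block and column, for the age slope (left, z per 100 days, 40 mice) and for mice of 33 to 44 days less mice of 17 to 21 days (right, z, 10 mice). Circles are genes of table A and triangles of table B. Itgb7, Tjp1, Ctnnd1 and Nectin1 lie near neighbours between -0.0392 and -0.0298 on the left, whereas Ctnnb1 lies well below its neighbours at -0.0172 and, on the right, Cdh22 at 0.377 lies above neighbours at -0.095.

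Repeat spots of a gene give a second reading, and 8 members had 2 or 3 spots. Those of Ctnnd1 differed: the brightest had -0.0472 (SE 0.019), the others 0.0006 (SE 0.0124) and 0.0008 (SE 0.009). Position corrected these were -0.0125, -0.0051 and -0.0117. For Itgb1 the brightest had 0.0218 (SE 0.0097) and the spot on table B -0.0046 (SE 0.0102), which became 0.0143 and 0.0241 (SE 0.0091) position corrected. The spots of Cdh2 had 0.0146 and 0.0228 (SE 0.0085, unadjusted p = 0.0105), but 0.0041 and 0.0018 position corrected. The Ctnnal1 spots had 0.0208 and 0.0215, and 0.0132 and 0.017 position corrected. The 3 spots of Ctnna1 had 0.0016, -0.0182 and -0.0125, and 0.0059, -0.0139 and -0.017 position corrected. Those of Cdh1 had -0.0067 and 0.0133, and -0.0074 and 0.0037 position corrected. Those of Nectin2 had 0.004 and -0.0189 (SE 0.0076, unadjusted p = 0.0168). Position corrected, the Nectin2 spots had -0.0022 and -0.0158 (SE 0.006, unadjusted p = 0.0116). All 3 Nectin3 slopes were below 0, from -0.0166 to -0.0038, and from -0.0126 to -0.0062 position corrected. Ctnnb1, Itgb7 and Tjp1 each had 1 spot. The clones of repeat spots may cover different stretches of a transcript, which the files do not show.

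**Figure D4:**
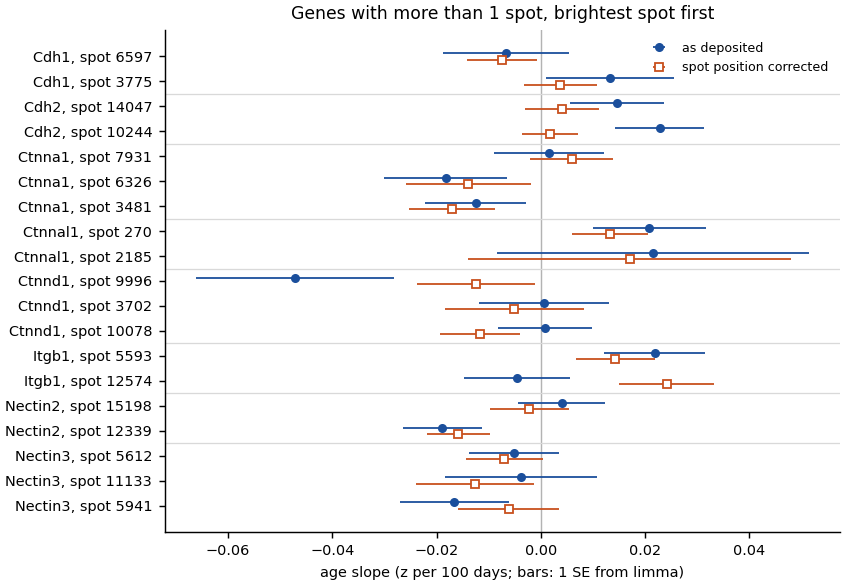
Age slope in z per 100 days of every spot of the 8 genes with more than 1 spot, the brightest spot of each gene first, as deposited (filled circles) and position corrected (open squares), with bars of 1 SE from limma. The brightest Ctnnd1 spot at -0.0472 stands apart from its 2 repeats near 0 as deposited, the 3 lie between -0.0125 and -0.0051 position corrected, and the Itgb1 spots lie closer together position corrected.

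Steps between age groups and the slope over adults use the same mice as the slope above, so they are not independent of it. From 17 to 44 days to 169 to 194 days no member and 0% of all spots passed the adjusted threshold (smallest adjusted p 0.819). At an unadjusted p under 0.05, 0 members were higher and 3 lower, against 1.34% and 4.60% of all spots. These were Ctnnb1 with -0.317 z (SE 0.115, unadjusted p = 0.00889), Cdh23 with -0.318 (SE 0.119) and Gja1 with -0.157 (SE 0.0744). Ctnnb1 had -0.172 (SE 0.0775) position corrected, beside neighbours at -0.162. Cdh23 went from -1.556 ± 0.303 (SD, n = 10) to -1.874 ± 0.264, the ranges -2.11 to -1.13 and -2.35 to -1.52 overlapping, with -0.274 (SE 0.0896) position corrected. Gja1 had -0.02 position corrected, and its difference turned to 0.095 (SE 0.126) among the later title numbers. Against the 5 mice of 33 to 44 days alone, 0 members had an unadjusted p under 0.05, and Ctnnb1 stood at -0.187 (SE 0.139).

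From 169 to 194 days to 704 to 743 days, 0 members passed the adjusted threshold, and 1 spot did (0.00592% of all). Ctnnal1, the alpha-catulin gene, was the 1 member higher at an unadjusted p under 0.05, with 0.172 z (SE 0.0831, unadjusted p = 0.0452), and 0 were lower, against 1.31% and 1.20% of all spots. Position corrected this was 0.0974 (SE 0.0582), and its repeat spot had 0.03 (SE 0.218). Its 10 oldest mice ran from -0.91 to -0.3 and the 10 mice of 169 to 194 days from -1.18 to -0.5. Next in p came Itgb7 (-0.183, SE 0.0989), Itgb1 (0.134, SE 0.0769), Tjp1 (-0.138, SE 0.083) and Ctnnb1 (-0.19, SE 0.115), each at an unadjusted p above 0.05. Over the slope of the 30 adults, 0 members and 0% of spots passed, and Ctnnal1 was again the 1 member at an unadjusted p under 0.05 (0.0309, SE 0.0152, but 0.0178 position corrected and -0.0035 on the repeat spot), beside 1.07% of spots higher and 1.53% lower. No member separated the youngest from the oldest mice without overlap, which 0.00592% of spots did upward and 0.0118% downward, and 0% of spots did so in either direction for the steps on both sides of 169 to 194 days.

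Males and females were not set apart by any member. The adjusted threshold was passed by 0 members and 0% of spots, and an unadjusted p under 0.05 by 0 members, against 0.574% of spots higher and 0.876% lower in males. Closest were Cldn10, male less female -0.103 z (SE 0.0669, unadjusted p = 0.132), Pecam1 with 0.124 (SE 0.0821) and the desmosomal Pkp2 with 0.107 (SE 0.0712). The X-inactivation RNA Xist, a known difference, had -0.169 (SE 0.0635, adjusted p = 1) and was not called either, and the Y-linked Eif2s3y and Uty had 0.104 (SE 0.063) and 0.006 (SE 0.0574), so these counts are no sign that males and females match. The age slope differed by sex for 0 members after adjustment, as for 0% of spots. Nectin3 was the 1 member with an unadjusted p under 0.05 (male less female slope 0.0337, SE 0.0167, unadjusted p = 0.0499), beside 0.852% of spots higher and 1.15% lower. Its slope was 0.0116 in males and -0.0221 in females. The difference was 0.0038 (SE 0.0137) over the mean of its spots on table A, and -0.0145 (SE 0.0295) for its spot on table B.

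Within the youngest group, 5 mice of 33 to 44 days were compared with 5 mice of 17 to 21 days, on both sides of weaning and the end of alveolar growth. Itgb7 was lower and Cdh22 higher in the older mice past the adjusted threshold, 2 of 47 members, while 7.48% of all spots passed. At an unadjusted p under 0.05, 5 members were higher (Cdh22, Cdh2, Itga3, Pcdh9 and Gja4) and 7 lower (Itgb7, Gja1, Ctnnd1, Tjp1, Itgb5, Ctnnbl1 and Ctnnb1), against 9.24% and 10.2% of spots. The member shares are again of the order of the background. Median differences were -0.0125 for the members and 0.0183 over all spots.

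Itgb7 had z scores of 2.05, 1.83, 2.06, 1.92 and 2.02 in the mice of 17 to 21 days and of 1.43, 1.64, 1.59, 1.57 and 1.64 in those of 33 to 44 days. The 2 sets do not overlap. It fell by 0.408 z (SE 0.0785, adjusted p = 0.0154), beside neighbours at -0.442, and position corrected the difference was -0.0142 (SE 0.0588, adjusted p = 0.941). With the title number division as a block the deposited difference was -0.382 (adjusted p = 0.0782), and among the earlier title numbers -0.369 (adjusted p = 0.116). Over all mice, corrected Itgb7 values ran from 1.333 to 1.663 in earlier and from 1.606 to 1.87 in later title numbers. Deposited values ran from 1.17 to 2.06 and from 1.43 to 2.06. The 2 later mice of this comparison, both of 33 to 44 days, had corrected values of 1.738 and 1.606. The part of this shift in the corrected difference was not tested. The call was lost without the male of 19 days or the female of 33 days, 2 fits in which no spot at all was called, and without each other mouse it stayed, the adjusted p lying between 0.0101 and 0.0939 over all 10 fits.

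Cdh22 had 1.28, 1.37, 1.3, 1.57 and 1.41 in the younger and 1.89, 1.79, 1.54, 1.82 and 1.77 in the older mice. The female of 19 days at 1.57 lay above the female of 40 days at 1.54, and otherwise the sets were apart. It rose by 0.377 z (SE 0.0898, adjusted p = 0.0269). In contrast to Itgb7 its neighbours had -0.095, and the position corrected difference was 0.436 (SE 0.0925, unadjusted p = 0.000768, adjusted p = 0.0618). The correction raised the SD of Cdh22 within groups of 1 age and sex from 0.188 to 0.238 over all mice. The title number block gave 0.322 (adjusted p = 0.108) and the earlier title numbers alone 0.314 (adjusted p = 0.157). With correction and block together, 0.213 was the smallest adjusted p of any member. Without 1 mouse at a time the difference ran from 0.328 to 0.463 and the adjusted p from 0.00512 to 0.138. The call was lost without the females of 17, 21 and 33 days and the males of 17 and 19 days. From 169 days on its group means were 1.716, 1.738 and 1.748, near the 1.762 of the mice of 33 to 44 days.

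**Figure D5:**
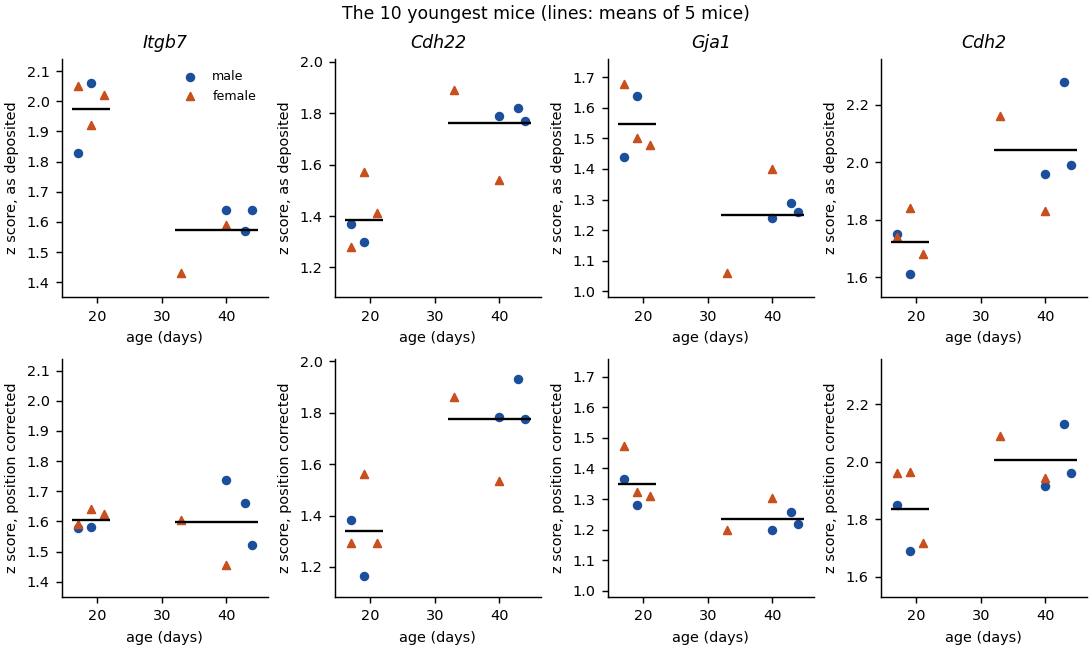
z scores of the 10 youngest mice against age in days for Itgb7, Cdh22, Gja1 and Cdh2, as deposited (top) and position corrected (bottom), males as circles and females as triangles, with lines at the means of the 5 mice of 17 to 21 and of 33 to 44 days. The gap in Itgb7 is absent in the lower row (-0.0142), whereas Cdh22 keeps a difference of 0.436.

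Gja1 was the other member without overlap between these mice: 1.44 to 1.68 at 17 to 21 days and 1.06 to 1.4 at 33 to 44 days. Its difference of -0.3 (SE 0.0862, adjusted p = 0.055) stood beside neighbours at -0.198 and was -0.109 (SE 0.0506) position corrected. So 0 members were higher and 2 lower without overlap, against 2.83% and 5.85% of all spots. Cdh2 ran from 1.61 to 1.84 in the younger and from 1.83 to 2.28 in the older mice, a difference of 0.319 (SE 0.0955, adjusted p = 0.0632) and of 0.184 (SE 0.0728) position corrected. Itga3 had 0.291 (SE 0.102) beside neighbours at 0.153, and 0.13 position corrected. Pcdh9 had 0.365 (SE 0.144) beside 0.0767, and 0.243 position corrected. Gja4 had 0.246 (SE 0.099) beside 0.254, and 0.002 position corrected.

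Of the remaining members that were lower in this comparison, Ctnnbl1 lies in column 10 of table B and had -0.33 (SE 0.119) beside neighbours at -0.1, and -0.215 (SE 0.0831) position corrected. The others lay on the columns named above. Ctnnd1 had -0.457 (SE 0.142) beside neighbours at -0.456, Itgb5 -0.343 (SE 0.118) beside -0.442 and Ctnnb1 -0.295 (SE 0.124) beside -0.229. Tjp1 had -0.298 (SE 0.0971) beside -0.439. Position corrected, Ctnnd1 and Ctnnb1 stood at -0.0032 and -0.0013, and Itgb5 and Tjp1 turned to 0.0749 and 0.126 (SE 0.0449, unadjusted p = 0.0182). In column 9 of table B 254 of 384 spots were called here. Ctnnb1 thus had a difference among the youngest mice that its neighbours shared, and an age slope of which the larger share remained with the correction. Epcam at -0.58 (SE 0.474) rested on the 1 female of 19 days.

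Markers of some other cells moved in the same comparison as deposited, in which 7.48% of all spots were called. With position correction 0 spots of any gene were called. Summed z of the 4 measured red cell genes was 5.11 to 6.58 at 17 to 21 days and 2.62 to 4.4 at 33 to 44 days, with 3 of 4 called lower. The sum of the 10 fibroblast genes was 7.4 to 8.5 and then 4.88 to 6, with 6 of 10 called. Of the 7 leukocyte genes 0 were called, and the sums overlapped (1.46 to 4.14 and 2.69 to 4.02). No T cell gene of the leukocyte list, such as Cd3e, Cd4 or Cd8a, was measured, so these 7 do not cover all leukocytes. Of the other lists, alveolar type II (5 measured), club and ciliated (6), smooth muscle (4), mesothelium (3), type I (1) and endothelium genes (6) had 0 called. Both later title number mice are among the 5 older ones. The part of these cells and of that division in the members' values was not tested.

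Genes that work with the members were counted in the same way. Of all spots 5.44% had a positive and 8.32% a negative age slope at an unadjusted p under 0.05, and 0.0178% were called. Of 21 measured partners of integrins inside the cell, 1 had a positive and 2 a negative age slope at an unadjusted p under 0.05 and 0 were called, with a median of -0.0012. The adaptor Tgfb1i1, a paxillin relative, had -0.0626 (SE 0.0168, adjusted p = 0.0537), and 0.006 position corrected. Of 16 adherens and tight junction partners 1 was lower, the polarity scaffold Patj with -0.0308 (SE 0.0097), which was -0.0025 position corrected. Of 7 desmosome partners 1 was lower, Dsg2 (-0.0256), and of 17 other adhesion molecules 2, Cd151 (-0.0289) and Cd34 (-0.0161), the latter at 0.0119 position corrected.

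Of the integrin ligands 5 of 16 were lower, 0 higher and 0 called, with a median of -0.0034. Shares over all spots were 8.32% lower, 5.44% higher and 0.0178% called. Position corrected, 2 ligands were higher (Lamc1 and Tnc) and 5 lower, the median being -0.0011. The 5 that were lower as deposited were the laminin chain Lamb1 (-0.0443, SE 0.0151), the basement membrane collagen Col4a1 (-0.0365, SE 0.0125), Mfge8 (-0.0528, SE 0.0156), Col1a1 and Col1a2. With the correction Lamb1, Col4a1, Mfge8, Col1a1 and Col1a2 stood at -0.0297, -0.0321, -0.0237, -0.0302 and -0.0035. Among cell type lists 5 of 10 fibroblast genes were lower (1 called, Sparc; median -0.0296, and -0.0028 position corrected), 3 of 4 red cell genes were lower (median -0.0533, and -0.0336 position corrected), and of 7 leukocyte genes 2 were higher (1 called, Ighm; median 0.0109). Of the alveolar type II genes 1 was higher and 2 lower, of the club and ciliated genes 1 was higher, and smooth muscle, mesothelium and type I lists had 0 at that p. Within the youngest mice 4 of the 16 ligands, 1 of 21 integrin partners, 1 of 16 junction partners, 0 of 7 desmosome partners and 2 of 17 other adhesion molecules were called, against 7.48% of all spots, and 0 in each of these lists with position correction.

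Whether partners vary together from mouse to mouse was asked for 10 pairs over 40 mice. Each mouse's deviation from the mean of its age and sex group was used. The permutations took no account of the 8 group means subtracted, so the permutation p-values are too small. Those close to the threshold decide nothing. Cdh1 and Ctnna1, cadherin and catenin of 1 complex on the same table, had a Pearson r of 0.584 (permutation p = 9e-05, adjusted over the 10 pairs 0.0009) and a Spearman rho of 0.548 (permutation p = 0.00038). It was 0.533 without the 2 mice farthest in Cdh1, 0.577 among the earlier and 0.644 among the later title numbers. Position corrected, r was 0.43 (permutation p = 0.00571, adjusted 0.0571) and rho 0.436. Cdh1 with Ctnnb1 had -0.4 (adjusted permutation p = 0.034, rho -0.393) and with Ctnnd1 -0.408 (0.034, rho -0.31), but -0.268 and -0.243 without the 2 farthest mice, and -0.008 and -0.116 position corrected, so neither held.

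Itga5 with Itgb1, the pair of the fibronectin receptor, had -0.377 (adjusted permutation p = 0.0407, rho -0.355) and -0.232 position corrected. This p-value lies close to the threshold, so the pair is not counted as passing. Itga1 with Itgb1, the collagen receptor, had 0.338 (adjusted permutation p = 0.0666) with a rho of 0.494 (adjusted permutation p = 0.0071), and 0.192 position corrected. The endothelial pairs Cdh5 with Pecam1 (r 0.214, rho 0.208) and Cdh5 with Gja4 (0.003, -0.065) and the pairs Cdh1 with Epcam (-0.165, -0.173), Itga3 with Itgb1 (-0.13, -0.089) and Tjp1 with F11r (-0.018, -0.042) did not pass. Position corrected, Cdh5 with Pecam1 turned to -0.321 (permutation p = 0.0431, adjusted 0.144), Itga3 with Itgb1 had -0.366 (permutation p = 0.0204, adjusted 0.102), and Cdh5 with Gja4, Cdh1 with Epcam and Tjp1 with F11r had 0.06, -0.204 and 0.034. Over all members the median r was 0.027 for the 25 pairs in 1 column of a table, -0.019 for 504 pairs in other columns of that table and 0.011 for 552 pairs across tables.

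The members varied between mice of 1 group about as much as other spots did. Their median SD within groups was 0.191 z, against 0.193 over all spots, and the position correction took these to 0.153 and 0.149. Epcam (0.616), Cldn8 (0.392), Pcdh9 (0.366), Cdh16 (0.341) and Itgb4 (0.34) varied most, and Pcdh17 (0.107), Nectin3 (0.135) and Nectin1 (0.136) least. With the correction the SD of Nectin1 dropped to 0.0553, whereas that of some members rose, as for Pcdh17 to 0.177. The corrected Pcdh17 values lay at -0.196 or above in all earlier title numbers and at -0.264 or below in all later ones. Its deposited values overlapped between these mice. A similar shift of corrected Itgb7 values, with some overlap, is given above.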

How the data were processed

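Lung RNA of 40 mice was hybridised to 80 arrays, 1 of table A and 1 of table B per mouse. The deposited values are a z score per spot, made by the authors from the radioactive signal, per the labels; how background was treated is not given in the sources used here, and so no depth is known and the number of arrays limits the precision. Scores were used as deposited. The genes and lists were chosen with earlier results of these data known. Spots with 1 symbol in the platform table were named, and all 47 symbols matched RefSeq names (GRCm38.p6). Two-sided linear models with sex as a term were fitted to each table by limma (version 3.58.1, R 4.3.3, moderated variance), and p-values were adjusted by Benjamini-Hochberg over all spots of both tables with a threshold of 0.05. Unnamed spots stayed in the fit.

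Genes are named by a rule: up to 8 per direction by p for the age slope with the same sign in both sexes, up to 4 per direction elsewhere, any gene called, and a fixed list of main adhesion genes. Genes outside these and the repeat spots were named to account for every member. Alternatives were quantile normalization, array weights, trend and robust variance, a filter on dim spots, position correction and the title number division. Further alternatives were log2 of age, the mean of a gene's spots within a table, and leaving out mice. Pair correlations used 100000 permutations (numpy 2.4.6, scipy 1.17.1). The fitting code was tested on simulated data.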

Additional observations from a re-analysis of the deposited data

Results flagged for a closer look

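In each gene and age group of 10 mice the highest and the lowest value were compared with the nearest of the others by Dixon's criterion for groups of 10, which sets the gap against the whole range. Of 188 groups 18 had such a mouse (9.57%), where independent normal values would give about 1 in 20. The share over all spots was not counted, and several of the mice recur between genes. The count is therefore not read as a trait of the members. Some of these mice also bear on calls. Without the male of 19 days or the female of 33 days, no spot was called within the youngest mice, and without the male of 43 days, the female of 193 days or the male of 476 days the age slopes of Ctnnb1, Itgb7 and Tjp1 each passed the adjusted threshold.

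Among the mice of 17 to 44 days, Epcam stood at 1.49 in a female of 19 days, the next value being -1.57. Cdh1 was 0.4 in a male of 19 days (next 0.79), Ctnnbl1 -1.34 in a male of 43 days (next -0.89), and a female of 33 days held Cldnd1 at -0.92 (next -1.31) and Itga9 at 0.22 (next 0.51). At 169 to 194 days Cldn8 was -2.3 in a male of 180 days (next -1.82) and F11r -0.63 in a female of 193 days (next -0.49). A female of 169 days held both Itga8 at -0.72 (next -1.21) and Pecam1 at 0.13 (next 0.85).

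At 476 to 499 days a male of 476 days held both Ctnnb1 at 0.77 (next 0.38) and Cdh2 at 1.7 (next 1.93). In that group Cdh3 was -0.86 in a female of 481 days (next -0.36), Itga1 1.47 in a female of 499 days (next 0.46) and Nectin3 0.03 in a female of 479 days (next 0.2). In the oldest mice a female of 704 days, 1 of the 2 whose table A array correlated least with its group, held Itgb4 at 1.55 (next 0.03), Itga9 at -0.07 (next 0.62) and Pkp4 at 0.26 (next 0.64). The other such female, of 712 days, held Cldn10 at 0.29 (next -0.21).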

How the results depend on the processing

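Alternative settings, other than leaving out each mouse in turn, gave 256 values of single genes. Of these, 220 kept their direction and side of the threshold, 19 came past it, 8 fell short of it and 9 changed sign. Only Itgb7 and Cdh22, within the youngest mice, were called in the main setting. For all other results, keeping the side of the threshold means staying uncalled, which is weak evidence of stability. For the age slope, where 0 members were called, 3 were called without the dimmest spots (Ctnnb1, Itgb7, Tjp1) and 3 with log2 of age, 1 with trend and robust variance and 5 with array weights (Ctnnd1 and Nectin1 added). Over all genes 458, 1188, 118 and 1313 spots were called in these settings, against 3. Leaving out 1 mouse gave 0 to 3, always among Ctnnb1, Itgb7 and Tjp1, with 261 to 631 spots called over all genes in the 11 fits that called any of these and 3 to 6 in the other 29. Within the youngest mice the 2 calls became 7 without the dimmest spots (1696 spots over all genes, against 1264), and 0 with position correction, with the title number block, with earlier title numbers alone and with correction and block together, settings in which 0 spots of any gene were called. Without 1 mouse the count ran from 0 to 6. A comparison within the later title numbers could not be run there. Signs changed with position correction, alone and together with the title number block: the slope of Nectin1 was 0.0097 and 0.0098, of Tjp1 0.0032 and 0.0013, and within the youngest mice Itgb5 stood at 0.0749 and 0.0646 and Tjp1 at 0.126 and 0.1096. Gja1 from the youngest to 169 to 194 days was 0.095 among the later title numbers. The cause of these changes was not tested beyond the construction of each setting. Correction and block together was chosen after seeing the data. No paired analysis was possible because the replicate numbers follow accession order and pair no mice.

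Whole-lung z scores carry no absolute level, spots have no replicate on an array, and with 10 mice a group and a median SD of 0.191 z small changes would pass unseen. Binding of related genes to a spot and the stretch of a transcript it covers were not examined.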
